A study of Saccharomyces cerevisiae with 6 samples.

Results

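A small set of H3K4me3 peaks is listed with more than 1 gene, and these shared peaks are described here in WT and *jhd2∆* yeast. The members are the peaks that a deposited peak list gives with at least 2 different gene names, and a locus is a set of genes linked by such a peak in either list. Of the 4452 peaks in WT, 176 (3.95%) were shared, and of the 4713 peaks in *jhd2∆*, 164 (3.48%) were shared. Together they made 192 loci with 388 genes, of 4970 genes listed in either genotype. Most shared peaks held exactly 2 genes, which was so for 173 peaks in WT and 163 in *jhd2∆*. Another 2 WT peaks held 3 genes, and 1 peak in each list held 4.

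Cells of strain BY4742, either wildtype or deleted for *JHD2*, were grown in YAR, a medium with raffinose as the carbon source and ammonium sulfate as the nitrogen source, to an O.D.600 of 0.5. In ChIP-Seq an antibody, which bound histone H3 trimethylated at lysine 4, enriches the DNA that is then sequenced. There was 1 H3K4me3 library per genotype, so no difference below has a replicate check, and no p-value is given. The pan-H3 and whole cell lysate libraries were not analysed here.

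In budding yeast the Set1 complex places H3K4me3 on nucleosomes at the start of transcribed genes, and the Jumonji-family demethylase Jhd2 removes it. The mark is typically strongest just inside the 5′ end of a gene and fades along the gene body. A promoter that serves genes on opposite strands usually has a marked nucleosome on each side of a depleted gap, so it can give a peak for each gene or a joint peak. The systematic name of a yeast gene ends in W or C for the strand it lies on, which allows the shared peaks to be sorted.

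By these letters, 138 loci (71.9%) were pairs of a W and a C gene. Another 47 were same-strand pairs, of which 39 were nested pairs, in which a long reading frame and a shorter one begin at the same 5′ end, and 8 were other same-strand pairs. The last 7 loci held 3 or more genes or names without a strand letter. The same genes shared a peak in both genotypes at 148 of the 192 loci (77.1%). A shared peak was listed only in WT at 28 loci and only in *jhd2∆* at 16.

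The W and C pairs were not pairs of well known divergent genes. In 130 of the 138 pairs exactly 1 gene had an entry in the RefSeq gene table of assembly R64, and the other name had none. As background, many yeast reading frames that overlap a named gene on the opposite strand are annotated as dubious. Over all genes listed in either genotype, 165 names had no RefSeq entry, and 140 of them (84.8%) lay in shared peaks. Among the member genes 36.1% lacked an entry, against 0.546% of the 4582 other genes. The 8 W and C pairs with an entry for each gene were *SLM6*/*REI1*, *FYV5*/*ADF1*, YDR114C/*MRX14*, YDR209C/*CPP2*, YER145C-A/*LSM5*, YGL235W/*MTO1*, *VAM10*/*VPS5* and YPR099C/*MRPL51*, and the genes of each pair overlap in that table.

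Neighbouring protein-coding genes that do not overlap in RefSeq did not share a peak in either list. Of the divergent neighbours in RefSeq whose genes lie apart, 875 had a peak for each gene in WT and 981 in *jhd2∆*, and 0 of them shared one. The same count was 0 of 927 and 0 of 1041 for convergent neighbours, and 0 of 1722 and 0 of 1850 for neighbours on the same strand. Overlapping neighbours behaved otherwise. Overlapping divergent genes shared a peak in 6 of 6 cases in WT and 5 of 5 in *jhd2∆*, overlapping convergent genes in 2 of 4 and 2 of 3, and overlapping same-strand genes in 40 of 42 and 39 of 41. In the study a gene received a peak that overlapped the 5′ part of its coding sequence. Sharing in these lists rests on the attribution to genes, but this rule alone does not give every listing. At YDR210W-A/YDR210W-B, whose frames begin at the same 5′ end, the *jhd2∆* peak (872200 to 873734) held the whole WT peak (872244 to 873700). Yet both frames were listed in WT and only the long one in *jhd2∆*. The peaks of divergent neighbours that lie apart lay a median of 308.5 bp apart in the WT list, against 348 bp in that of *jhd2∆*. Over 848 such pairs the median change of the gap was 29 bp (quartiles 13 and 47 bp), and it was wider in *jhd2∆* in 89.4%.

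Of the 6 textbook divergent pairs examined, 3 had a peak for each gene. *HTA1* and *HTB1*, which encode histones H2A and H2B, had a peak each in WT, of 688 bp and 442 bp, and in *jhd2∆*, of 452 bp and 428 bp. *HHT1* and *HHF1*, which encode histones H3 and H4, had peaks of 406 bp and 478 bp in WT and of 371 bp and 426 bp in *jhd2∆*. The peaks of *HIS3*, an enzyme of histidine synthesis, and its neighbour *MRM1*, a mitochondrial rRNA methyltransferase, measured 665 bp and 651 bp in WT and 648 bp and 661 bp in *jhd2∆*. Each of these peaks was listed with 1 gene. In the second H2A and H2B pair only *HTA2* had a listed peak (500 bp in WT, 526 bp in *jhd2∆*), and in the second H3 and H4 pair only *HHF2* did (339 bp and 260 bp). The divergent partners *GAL1* and *GAL10* had no listed peak in either genotype.

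Breadth is the number of bases from the first to the last base of a peak, and a difference is breadth in *jhd2∆* minus breadth in WT for peaks with the same genes in both lists. Of all 4333 such peak pairs, 14% were wider in *jhd2∆* by more than 100 bp, 1.18% were narrower by more than 100 bp and 63.1% were wider by any amount. Of the 148 pairs of shared peaks, 100 were wider and 48 narrower, 21 (14.2%) were wider by more than 100 bp and 1 was narrower by more than 100 bp. The median difference was 23.5 bp, against 16 bp for the 4185 pairs of peaks with 1 gene. This middle value joins classes with different medians. The median difference was 12 bp in W and C pairs, 64 bp in nested pairs and -11 bp in the other same-strand pairs.

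**Figure D1:**
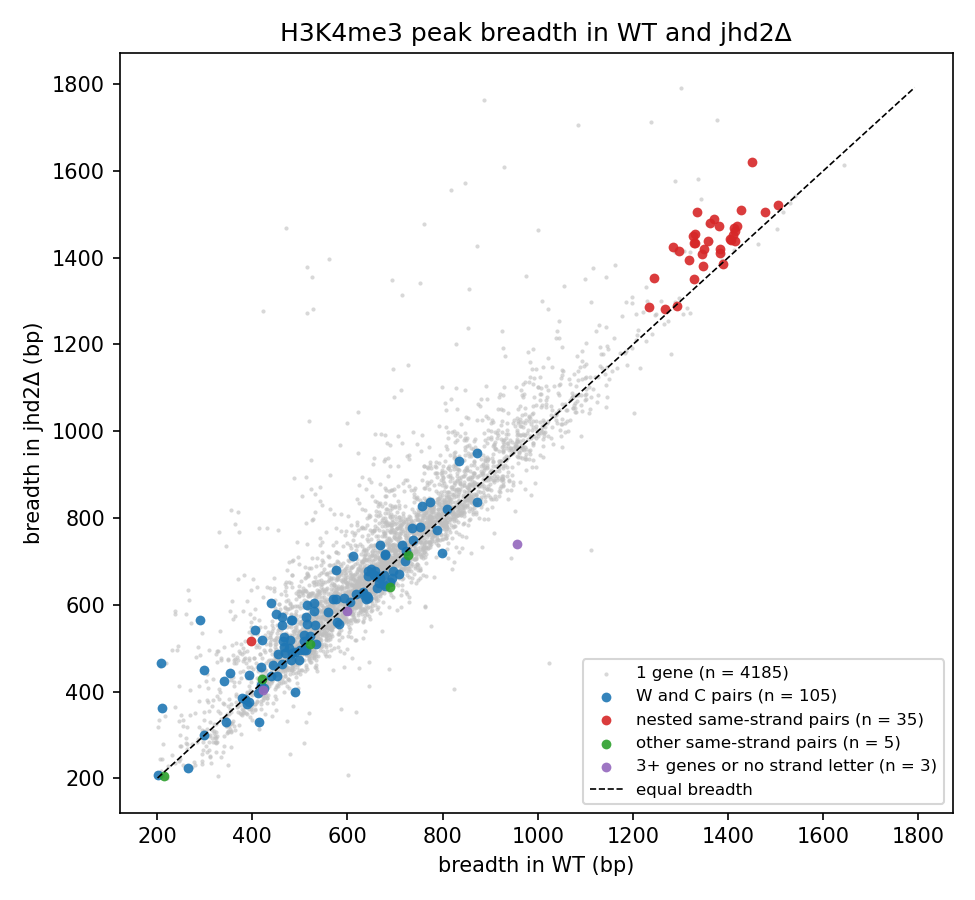
Breadth of each H3K4me3 peak in WT (x axis, bp) and in *jhd2∆* (y axis, bp) for peaks with the same genes in both lists, with a dashed line at equal breadth and 1 library per genotype. Of the 35 nested pairs (red), 33 lie above the line, and all 35 except YHL009W-A/YHL009W-B measure over 1200 bp, as do some peaks of 1 gene, while the 105 W and C pairs (blue) lie within the cloud of peaks with 1 gene (grey).

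In W and C pairs the change in breadth lay close to that of peaks with 1 gene. Of the 105 pairs shared in both lists, 66 (62.9%, 95% Wilson interval 53.3 to 71.5, which covers counting error only) were wider in *jhd2∆*, against 63.0% of peaks with 1 gene. The quartiles of the difference were -15 and 52 bp, and the differences ranged from -91 to 276 bp. Of the 105, 9 (8.57%) were wider by more than 100 bp, against 14% of all peak pairs, and 0 were narrower by more than 100 bp, against 1.18%. Pairs shared in both lists leave out those whose gene list changed, and with every W and C locus that had a peak in both lists 18 of 129 (14.0%) were wider by more than 100 bp and 1, YOR186C-A/YOR186W, was narrower by more than that. The median difference was then 20 bp, and it was 2 bp without the 20% of peaks lowest in pileup. The peaks were narrower than those of 1 gene, with median breadths of 522 bp (WT) and 571 bp (*jhd2∆*) against 660 bp and 682 bp. This also held in WT when all peaks of the list were divided into 5 bins of 20% by pileup, the height of the stacked reads. From the lowest bin to the highest, W and C peaks had median breadths of 454, 529, 549, 655.5 and 606 bp and peaks of 1 gene had 513, 624, 664, 703 and 779 bp.

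Edges were then read along the gene that has a RefSeq entry, which was possible for 98 pairs. A positive shift is a movement outward in *jhd2∆*. Over all 4322 oriented peak pairs, the upstream edge lay further out in 15.7% and the downstream edge in 78.7%. In W and C pairs the median upstream shift was -9 bp (quartiles -20 and 2 bp), and this edge lay further out in 27.6%. The median downstream shift was 25 bp (quartiles 2 and 52.75 bp), and this edge lay further out in 79.6%. Without the 20% of peaks lowest in pileup the downstream median was 10 bp. Peaks of 1 gene had medians of -14 bp upstream and 30 bp downstream. Where a peak covers genes on opposite strands, the edge downstream of the annotated gene can lie upstream of the other name, or inside it, and the lists do not tell these apart.

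**Figure D2:**
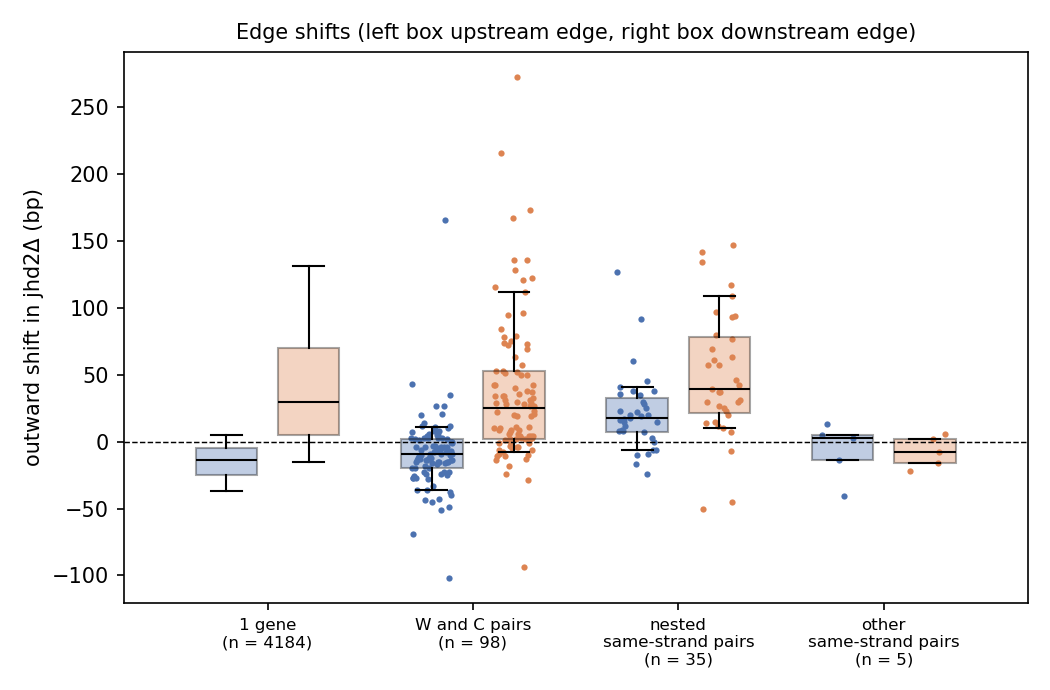
Outward shift of the upstream edge (left box of each pair) and the downstream edge (right box) in *jhd2∆* relative to WT, in bp, by class of peak. Boxes span the quartiles with the median as a line, whiskers run from the 10th to the 90th percentile, and points are single shared peaks. The upstream median is above 0 in nested pairs (18 bp) and below 0 in peaks of 1 gene (-14 bp) and in W and C pairs (-9 bp).

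The largest increase among W and C pairs shared in both lists was at YER152C/YER152W-A on chromosome V. Its peak ran from 473729 to 474018 in WT and from 473456 to 474021 in *jhd2∆*, or 290 bp and 566 bp. These positions were taken unchanged from the lists, whose genome build is not stated there. The peak of YPR123C/*CTR1*, with *CTR1* encoding a copper transporter of the plasma membrane, went from 208 bp in WT to 467 bp in *jhd2∆*. The peak of YNL105W/*INP52*, a phosphoinositide phosphatase gene, went from 439 bp to 605 bp. In all 3 most of the gain lay at the downstream edge, which moved out by 273, 216 and 173 bp. *REG2*/YBR051W, where *REG2* encodes a regulatory subunit of the Glc7 phosphatase, went from 210 bp to 363 bp, and here the upstream edge moved out by 166 bp. YNL226W/*JJJ1*, a co-chaperone gene of ribosome assembly, went from 299 bp to 449 bp. Of these 5 peaks 4 were under 300 bp in WT.

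Among the same pairs, the largest decreases were smaller than the largest increases. Over every W and C locus with a peak in both lists, the differences ranged from -304 to 346 bp. *BUD31*/YCR064C, a splicing factor gene with its overlapping partner, measured 490 bp in WT and 399 bp in *jhd2∆*, with the downstream edge moved by -94 bp. YBR056C-B/*MNC1* measured 414 bp and 331 bp, and *VAM10*/*VPS5*, where *VPS5* encodes a retromer subunit, 799 bp and 720 bp. YOL085C/YOL085W-A measured 264 bp and 224 bp. *MNP1*/YGL069C, a gene of the mitochondrial ribosome, measured 690 bp and 652 bp.

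**Figure D3:**
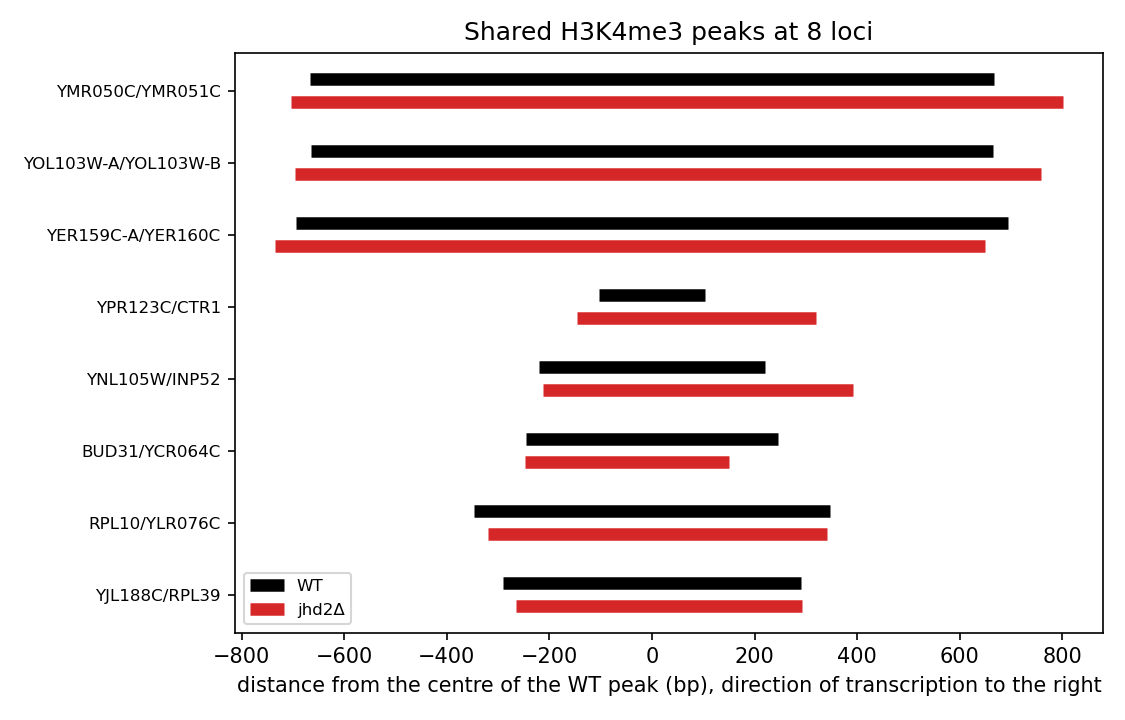
Extent of the shared peak in WT (black) and *jhd2∆* (red) at 8 loci, in bp from the centre of the WT peak, with transcription of the gene that orients the locus running to the right. The top 3 are nested pairs of 1331 to 1389 bp in WT, and the others are W and C pairs. *CTR1* and *INP52* gain on the right side by 216 and 173 bp, and *BUD31* loses 94 bp there.

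In W and C pairs, as in peaks of 1 gene, the median difference in breadth was larger in the 2 lowest bins of pileup than in the other 3. From the lowest to the highest bin of WT pileup, the median difference was 44, 39, 6.5, 13 and -11.5 bp in W and C pairs, which numbered 31, 14, 18, 20 and 22. In peaks of 1 gene it was 46, 24, 15, 9 and -1 bp. In the highest bin 31.8% of the W and C pairs and 48.2% of the peaks of 1 gene were wider in *jhd2∆*. The bins and the differences both draw on the same WT library, so they are not independent of each other.

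Gene groups were set by symbol, with MRPL, MRPS, MRP and RSM for mitochondrial ribosomal proteins and UTP, NOP, NOG and RRP for ribosome biogenesis. Genes of like function with other symbols, such as *MNP1* and *JJJ1*, were not counted. Of the 4805 listed genes with a RefSeq entry, 248 (5.16%) lay in a shared peak. The share was 3 of 135 for cytosolic ribosomal proteins (*RPL39*, *RPL8B* and *RPL10*), 2 of 61 for mitochondrial ribosomal proteins (*MRPL38* and *MRPL51*), 1 of 22 for mitochondrial import (*TIM9*) and 5 of 53 for ribosome biogenesis (*RRP17*, *NOP13*, *NOP4*, *RRP9* and *RRP15*). It was 0 of 8 for histones, 0 of 58 for oxidative phosphorylation, 0 of 34 for the proteasome and 0 of 5 for galactose genes. The peak of *RPL10*, a protein of the large subunit, measured 694 bp in WT and 661 bp in *jhd2∆*. That of *RPL39* measured 582 bp and 557 bp, and the upstream shifts of these peaks were -27 and -26 bp. *MRPL38* measured 534 bp and 511 bp, *MRPL51* 469 bp and 489 bp, and *TIM9*, a chaperone of the mitochondrial intermembrane space, 413 bp and 398 bp. Among the 5 genes of the ribosome biogenesis group, *NOP13* showed the largest difference, from 420 bp to 519 bp. Of these 5, *NOP4* was the one with a narrower peak in *jhd2∆*, of 640 bp and 613 bp. *RRP17* went from 478 bp to 501 bp, *RRP9*, a U3 snoRNP protein, from 679 bp to 717 bp, and *RRP15* from 480 bp to 520 bp.

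Where sharing differed between genotypes, the other list gave a peak with fewer gene names or no peak. At none of the 44 loci shared in 1 list only did the other list give the genes separate peaks. Of the 28 loci shared only in WT, 23 had a peak with 1 of the genes in *jhd2∆* and 5 had no peak. Of the 16 shared only in *jhd2∆*, 8 had a peak with 1 gene in WT and 8 had no peak. No peak means that no peak was listed with any of these genes, and peaks without a gene name would not be seen.

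Among the W and C pairs with 1 RefSeq gene, that gene was the one kept in 17 of 17 cases that were shared only in WT and in 6 of 6 that were shared only in *jhd2∆*. In the 17 pairs the *jhd2∆* peak with 1 gene was the wider one each time, by a median of 90 bp with a range of 16 to 346 bp, and its downstream edge lay further out by a median of 113 bp. In the 6 pairs the *jhd2∆* peak was the narrower one in 5, with a median difference of -38 bp and a range of -304 to 233 bp. These differences are a description only, since sharing follows the attribution to genes, whose full rule is not given in the sources used here. *SIR2*, which encodes an NAD-dependent histone deacetylase, shared a peak of 681 bp with YDL041W in WT and had a peak of 697 bp alone in *jhd2∆*. *SLM3*, a gene of mitochondrial tRNA modification, shared 548 bp with YDL032W in WT and had 869 bp alone in *jhd2∆*, with the downstream edge further out by 304 bp. *RPL8B*, a gene of the large ribosomal subunit, shared 763 bp with YLL044W in WT and had 801 bp alone in *jhd2∆*. In the opposite direction, *GPM1*, which encodes the glycolytic phosphoglycerate mutase, had 772 bp alone in WT and shared 744 bp with YKL153W in *jhd2∆*. *LSM8*/YJR023C, with 251 bp in WT, had no listed peak in *jhd2∆*.

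The nested pairs had the largest median breadth and the largest median difference of the 4 classes. Their long frames measure 4816 to 5410 bp and their short frames 1323 bp at 28 loci and 1317 bp at 9, with other lengths at YHL009W-A/YHL009W-B and YHR214C-B/YHR214C-C. As background, a long frame that shares its start with a shorter one is the layout known from yeast Ty retrotransposons, where the short TYA frame encodes the particle protein and the long frame adds protease, integrase and reverse transcriptase. The tables used here give the IDs no name beyond the systematic one, so no family is assigned to a locus. RefSeq holds 41 such pairs, 40 of them had at least 1 gene in a list, and 39 were members. Of the remaining ones, YLR410W-B was listed without its short frame, and YGR109W-B with its short frame was not listed. Where copies are near-identical, reads of 51 bp cannot always be told apart. The study aligned reads with the standard settings of bowtie2, which put a read that fits several copies equally well on any of them at random, and a later filter on such reads is not given in the sources used here. Values of single copies may therefore be shared among copies, and the copies are not independent of each other.

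Nested pairs carried the broadest shared peaks. Of the 85 WT peaks of at least 1200 bp, 37 were shared peaks of nested pairs, and of the 128 in *jhd2∆*, 35 were. Counted with the peaks listed with the long frame alone, nested loci held 38 in each genotype. The median breadth of the 35 pairs shared in both lists was 1357 bp (WT) and 1438 bp (*jhd2∆*). YFL002W-A/YFL002W-B had the broadest shared WT peak, of 1505 bp on chromosome VI from 138281 to 139785, and 1522 bp in *jhd2∆*. The narrowest of the class was YHL009W-A/YHL009W-B, with 398 bp in WT and 516 bp in *jhd2∆*.

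In *jhd2∆*, 33 of the 35 nested pairs (94.3%) were wider, against 63.1% of all peak pairs. The median difference was 64 bp (quartiles 33 and 112.5 bp), and the differences ranged from -4 to 170 bp. Of the 35, 12 (34.3%) were above 100 bp, against 14% of all peak pairs. YMR050C/YMR051C went from 1335 bp to 1505 bp, YHR214C-B/YHR214C-C from 1451 bp to 1621 bp, YBL100W-A/YBL100W-B from 1285 bp to 1424 bp, YOL103W-A/YOL103W-B from 1331 bp to 1454 bp and YPR158C-C/YPR158C-D from 1327 bp to 1449 bp. At the other end, YER159C-A/YER160C measured 1389 bp and 1385 bp, and YNL054W-A/YNL054W-B 1293 bp and 1289 bp. The next in order, YLR157C-A/YLR157C-B, YFL002W-A/YFL002W-B and YBR012W-A/YBR012W-B, were wider by 14, 17 and 22 bp.

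The nested pairs were wider at each end. The median upstream shift was 18 bp (quartiles 7.5 and 32.5 bp). This edge lay further out in 28 of 35, against 15.7% of all oriented peak pairs. The median downstream shift was 39 bp (quartiles 21.5 and 78.5 bp), and this edge lay further out in 32 of 35, against 78.7%. Each edge lay further out in 25 of 35 (71.4%), against 12.9% of all oriented peak pairs. For comparison, the 43 peaks of 1 gene of at least 1200 bp in WT had a median difference of 12 bp (quartiles -19.5 and 99.5 bp), an increase above 100 bp was seen in 11 (25.6%), the median shifts were -15 bp upstream and 21 bp downstream, and each edge lay further out in 4.65%.

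Pileup showed the second difference of the nested pairs. The lists' pileup scales are not known to match, so each peak was ranked by its percentile within its own list. The median pileup of all peaks was 301 in WT and 272 in *jhd2∆*, whereas that of the 35 nested pairs was 311 and 306. Their median percentile was 65.4 in WT and 92.9 in *jhd2∆*. The percentile was higher in *jhd2∆* in 34 of 35 pairs, against 52% of all peak pairs. It was higher by more than 20 points in 20 of 35 (57.1%), against 10.6%. Reads may be shared among these copies, so the 35 are not independent cases. W and C pairs had median percentiles of 45.1 and 47.6, and 14 of 105 were higher by more than 20 points. Peaks of 1 gene of at least 1200 bp in WT had 83.7 and 85.1, and 34 of 43 were higher in *jhd2∆*. Repeated DNA outside the class had pileups of 386 and 383 (ETS1-2/RDN37-2) and of 390 in each list (RUF5-1).

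**Figure D4:**
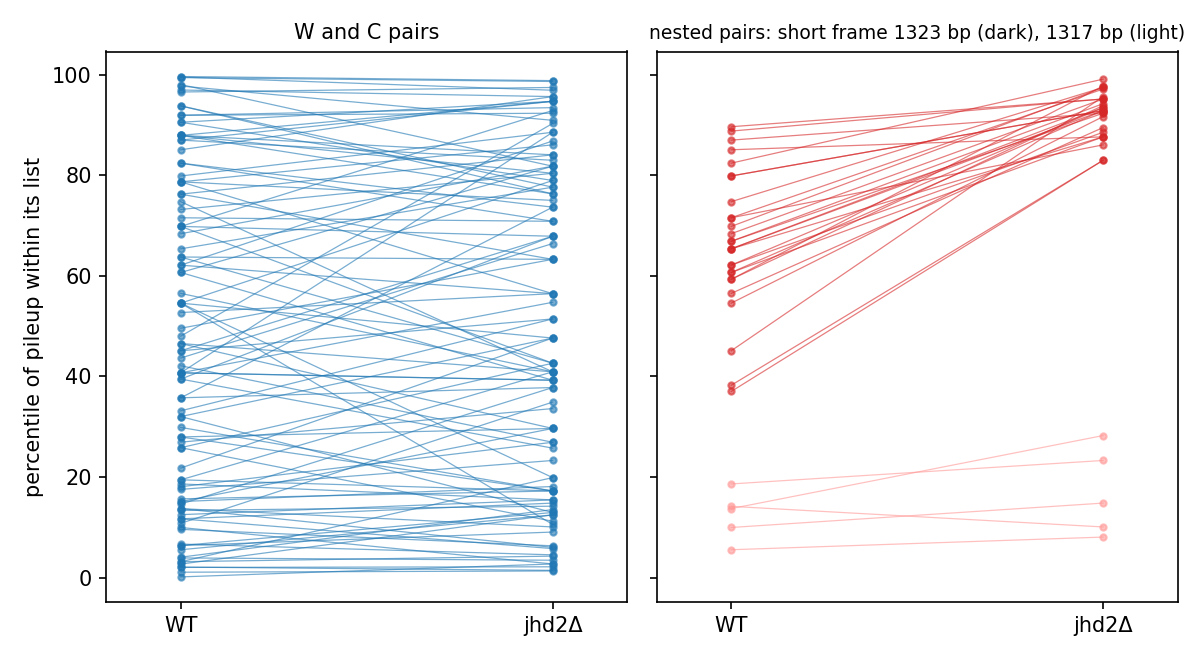
Percentile of pileup within its own list (y axis) in WT and *jhd2∆* for the peaks shared in both lists, with 1 line per locus. The W and C pairs (left) spread over the whole range in both genotypes, with medians of 45.1 and 47.6. The 28 nested pairs with a short frame of 1323 bp (right, dark) lie at 37.0 to 89.6 in WT and at 83.0 to 99.1 in *jhd2∆*, and the 5 with 1317 bp (right, light) stay below 30.

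The nested pairs were then split by the length of the short frame, after the values were seen. All 28 were shared in both lists, with pileups of 292 to 330 (median 311.5) in WT and 294 to 328 (median 306) in *jhd2∆*, and all 28 had a higher percentile in *jhd2∆*. The 9 loci with a short frame of 1317 bp, counted with whichever peak was listed, had pileups of 238 to 275 (median 264) in WT and 233 to 285 (median 254) in *jhd2∆*. The pileup ranges of these groups of copies did not overlap in either genotype. Values may be shared among the copies of a group, so these ranges do not describe independent loci. The percentile was higher in *jhd2∆* in 8 of these 9 loci as well, with medians of 13.7 and 23.3, and at YDR210W-A/YDR210W-B it went from 13.3 to 70.8. The median percentiles of the 28 were 66.1 and 92.9. The peaks of the 9 were broader, with median breadths of 1463 bp (WT) and 1522 bp (*jhd2∆*) against 1349 bp and 1433.5 bp in the 28. The *jhd2∆* peak was wider in 9 of 9 loci and in 26 of 28. All 4 nested loci shared in 1 list only had the 1317 bp frame. YDR210W-A/YDR210W-B, YDR261W-A/YDR261W-B and YOR192C-A/YOR192C-B were shared in WT, at 1457, 1481 and 1463 bp, and *jhd2∆* listed the long frame alone, at 1535, 1541 and 1558 bp. YOR343W-A/YOR343W-B had the long frame alone in WT, at 1520 bp, and was shared in *jhd2∆*, at 1561 bp.

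The other same-strand pairs were 8 loci, 5 of them shared in both genotypes, where the differences ranged from -49 to 9 bp. *NHP6A*/YPR053C went from 421 bp in WT to 430 bp in *jhd2∆*, and *NHP6B*/YBR090C from 690 bp to 641 bp. These genes encode the paired HMG-box proteins that bend DNA in yeast chromatin. *SEC59*/YMR013C-A, with the dolichol kinase gene, measured 522 bp and 510 bp, YLR140W/*RRN5*, with a gene of the RNA polymerase I upstream factor, 214 bp and 205 bp, and YOR012W/YOR013W 727 bp and 716 bp. Of the 5 only *NHP6A* was wider in *jhd2∆*. *DDR48*, a stress-responsive gene, had 1309 bp alone in WT and shared 1294 bp with YMR173W-A in *jhd2∆*. *AXL2*, a bud site selection gene, shared 271 bp with YIL141W in WT and had 727 bp alone in *jhd2∆*.

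The 7 loci with 3 or more genes or no strand letter include repeated DNA, and the 3 highest pileups among shared WT peaks were all here. The peak of RUF5-1, YHR052W-A and *CUP1-1*, a copy of the metallothionein gene in its tandem array on chromosome VIII, had a breadth of 567 bp and a pileup of 390 in WT. In *jhd2∆* the list gave RUF5-1 alone, with 722 bp and a pileup of 390. The second copy, RUF5-2 with YHR054W-A and *CUP1-2*, had 583 bp and a pileup of 385 in WT and no listed peak in *jhd2∆*. In the ribosomal DNA, ETS1-2/RDN37-2 measured 956 bp in WT and 740 bp in *jhd2∆*, with pileups of 386 and 383, and it was the 1 shared peak narrower by more than 100 bp. ITS2-2/RDN25-2 was listed only in *jhd2∆*, with 244 bp and a pileup of 398. Reads of these arrays come from many copies as well.

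The remaining loci lie outside these arrays. HRA1, a non-coding RNA, and *DRS2*, a phospholipid flippase gene, shared a peak that measured 600 bp (WT) and 587 bp (*jhd2∆*). The non-coding RNAs ICR1 and PWR1 shared 630 bp in *jhd2∆* and had no listed peak in WT. The peak with 4 names, YPR169W-A, YPR170C, YPR170W-A and YPR170W-B, measured 422 bp and 403 bp.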

How the data were processed

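H3K4me3 ChIP-Seq peak lists of WT and *jhd2∆*, 1 library each, were used. The authors aligned single-end reads of 51 bp, about 14000000 per sample as stated, with bowtie2 2.2.3 and called peaks with MACS2 with broad calling off, and the notes also name FastQC, SAMtools, Picard and GATK. The deposited lists give peak start and end, breadth in bp and pileup, a coverage signal, and gene length in bp in the WT list. As the study notes, making total H3K4me3 signal equal in WT and *jhd2∆* is part of ChIP-Seq analysis, which can hide a general gain of the mark. Its use on the deposited pileup is not given in the sources used here. The genome build and control library are not given in the sources used here. The lists hold no read totals, so depth per peak is unknown.

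Members and lists were chosen with earlier results of these data known. Peaks were paired by identical gene sets. Symbols, and which genes neighbour or overlap, came from RefSeq R64. Frame lengths came from RefSeq, and 77 of 77 nested genes with a length in the deposited list matched within 1 bp. Nested pairs share a strand and 5′ end, with a long frame of at least 4000 bp. The planned split of W and C pairs into divergent and convergent could not be made, because 1 gene had no RefSeq entry in most, and the edges follow the annotated gene. No sequence was used, so the planned promoter description was not made.

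Named loci are the 5 largest increases and decreases per class among loci shared in both lists. The rule also takes the 5 broadest, the 5 narrowest and the 3 highest by pileup in WT. Loci of 3 or more genes and those in the gene groups complete it. *SIR2*, *SLM3*, *GPM1*, *DDR48*, *AXL2*, HRA1/*DRS2*, ICR1/PWR1, ITS2-2/RDN25-2 and the nested loci by frame lie outside this rule and were picked with their values in view. The edge computation was tested on simulated lists. Tables were made in Python 3.11.15 with pandas 2.3.3 and numpy 2.4.6, intervals with scipy 1.17.1 and plots with matplotlib 3.10.9. Alternatives in limit, pairing, pileup and naming were tried.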

Additional observations from a re-analysis of the deposited data

How the results depend on the processing

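No paired analysis was possible because the H3K4me3 lists come from 1 library per genotype and no test was made. The counts of 21 loci wider and 1 narrower by more than 100 bp became 48 and 4 with a limit of 50 bp, and 2 were wider with a limit of 200 bp. Pairing by any overlap in position, or taking the widest peak of any member gene, gave 32 and 2. When the 20% of peaks lowest in pileup were dropped from both lists, 12 were wider, and the median WT percentile of nested pairs was 58.6. Without hyphen-suffixed names and names with no strand letter, which removes most nested pairs, 10 were wider and 0 narrower, shared peaks numbered 104 in WT and 94 in *jhd2∆*, loci shared in both 87, the median WT breadth of shared peaks was 549 bp and the downstream shift of same-strand pairs was 15 bp, against 34 bp. Of 77 planned values of the summaries 62, and of 26 added after the data were seen 25, stayed within the tolerance (counts within 1.5 times, shares within the 95% Wilson interval, medians within the 95% order-statistic interval of the median), and none changed sign. That tolerance is wide for W and C pairs, whose median difference of 12 bp was 20 bp with each pairing by position, 22.5 bp without the names above and 2 bp without the low peaks, where the downstream shift was 10 bp against 25 bp. With an overlap of 50% of both peaks, 30 loci were wider. Pairing by position left the values of named loci as they were, except that YPR123C/*CTR1* was not paired at 50% overlap. With no read totals, counting error of single edges could not be given.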
